A study of Mus musculus with 4 samples.

Results

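The 36 genes described here encode heat shock proteins and other chaperones, and they were chosen by gene symbol from the 31053 genes listed in the deposited matrices, with earlier results of these data known. Of these, 23 act in the cytosol and nucleus, 10 in the endoplasmic reticulum and 3 in mitochondria. They were followed across the cell classes of the mouse hippocampus after sham surgery and after 2VO, an operation in which both common carotid arteries are clamped and then reopened. All mice were C57BL/6, and the labels give an age of 12 weeks for every one, while the methods of the study give a younger age. In the sham mice the clamps were placed and released at once. Single-cell RNA counts came from whole hippocampus dissociated with the enzyme mixture pronase, 1 library per mouse, and the series labels 2 sham and 2 2VO libraries. The sham libraries 1 and 2 and the 2VO library 1 were compared, and 2VO library 2 was not analysed here. With 1 2VO library, the spread behind every test comes from the sham libraries, and the 2VO library is assumed to vary as they do. This spread was shared over genes to a degree that differed between classes.

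Chaperones bind unfolded protein chains and help them to fold, to be held in solution or to be degraded. In the cytosol, proteins of the HSP70 family (Hspa1a, Hspa1b, Hspa8) cycle on and off their clients with the help of J-domain proteins (Dnaja1, Dnajb1) and of nucleotide exchange factors (Hsph1, Hspa4, Bag3). HSP90 proteins take clients further with Stip1 and Ahsa1, small heat shock proteins (Hspb1, Cryab) hold unfolded chains without using ATP, and the ring complex TRiC (Cct2, Cct5, Cct8) folds actin and tubulin. Heat, ischemia and also enzymatic cell isolation can switch on the inducible genes through the transcription factor Hsf1. Chaperones of the endoplasmic reticulum (Hspa5, Hsp90b1, the disulfide isomerases) are raised by a separate pathway, the unfolded protein response, and those of mitochondria (Hspd1, Hspe1, Hspa9) fold imported proteins.

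The following matches to the endoplasmic reticulum stress response element (ERSE, searched as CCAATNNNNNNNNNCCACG on both strands) are shown because their fixed letters, in capitals, mark the promoters of most reticulum members, among them the pair that was higher after 2VO in choroid plexus cells. Promoters run from 250 bases before to 50 bases after the start site in the RefSeq annotation of GRCm38, and 30 of the 36 members were matched by symbol. Hspa8, Hspa9, Hsp90aa1, Hsp90ab1, Cryab and Hsf1 were not among them.
Hspa5, chr2:34772025-34772043, + strand: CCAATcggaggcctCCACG
Pdia6, chr12:17266491-17266509, + strand: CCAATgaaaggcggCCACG
Dnajc3, chr14:118937827-118937845, + strand: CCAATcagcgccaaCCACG
Canx, chr11:50325800-50325818, - strand: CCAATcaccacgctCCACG
Calr, chr8:84847075-84847093, + strand: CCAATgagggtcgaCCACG
Hsp90b1, chr10:86705533-86705551, + strand: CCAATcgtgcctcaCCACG
Hsp90b1, chr10:86705638-86705656, - strand: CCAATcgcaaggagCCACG

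All 6 members with this element act in the endoplasmic reticulum, 6 of its 10 members, whereas 0.137% of the 27025 genes with a promoter held a match (0.119% of 32851 promoters). The 250 bases of the Hspa5 promoter around its element, which ends 47 bases before the start site, and the same length for Pdia6, where it ends 80 bases before, are printed below with the element in capitals.
Hspa5, chr2:34771840-34772089, + strand: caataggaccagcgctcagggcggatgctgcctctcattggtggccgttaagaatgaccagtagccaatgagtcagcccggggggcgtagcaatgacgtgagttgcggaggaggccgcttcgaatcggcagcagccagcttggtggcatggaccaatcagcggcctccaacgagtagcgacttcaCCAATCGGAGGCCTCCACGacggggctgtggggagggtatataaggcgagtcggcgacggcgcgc
Pdia6, chr12:17266339-17266588, + strand: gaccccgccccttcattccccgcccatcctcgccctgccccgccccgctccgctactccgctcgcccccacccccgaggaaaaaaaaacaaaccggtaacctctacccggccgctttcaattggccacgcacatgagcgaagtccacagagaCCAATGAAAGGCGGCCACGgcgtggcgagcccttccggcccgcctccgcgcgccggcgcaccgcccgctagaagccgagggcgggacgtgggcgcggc

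The heat shock element, the site of Hsf1, was searched as GAANNTTCNNGAA on both strands and lay in 0.603% of all promoters and in those of 4 of the 30 matched members, Hsph1, Dnajb6, Hspd1 and Hspe1. Hspd1 and Hspe1 are transcribed away from each other and share 1 pair of overlapping matches on opposite strands, so that these are not independent. The matches are a description of the letters in this window, and their use by a factor was not measured.
Hsph1, chr5:149636288-149636300, + strand: GAActTTCcaGAA
Dnajb6, chr5:29735852-29735864, + strand: GAAtcTTCcgGAA
Hspd1 and Hspe1, chr1:55088059-55088071, - strand: GAAggTTCtaGAA
Hspd1 and Hspe1, chr1:55088064-55088076, + strand: GAAccTTCcgGAA

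The cells analysed are the barcodes in which 650 or more genes were detected, 5109 and 5126 cells in the sham libraries and 3912 in the 2VO library. The 2VO library was the shallowest, with a median of 2311 unique molecules (UMIs) per cell against 8191 and 5249, and its mitochondrial share was 5.89% against 3.38% and 4.09%. The members took 1.33% and 1.06% of UMIs in sham and 1.40% in 2VO. Cells were clustered without the members and named from marker genes, and 13 classes had at least 10 cells in each library. Cells named as glutamatergic neurons (GLUTNs) were few for a hippocampus, 174 with 15 from 2VO, while choroid plexus epithelial cells (CPECs) were 1361. A further cluster of 279 cells held markers of both GABAergic and glutamatergic neurons and was left out without a name. It had 49 and 200 sham cells and 30 2VO cells. At a clustering resolution of 2.0 the GLUTNs numbered 363, with 32 from 2VO. Within mature oligodendrocytes (OLGs) 1 cluster held 658 of the 770 2VO cells and 11 and 68 sham cells, and within oligodendrocyte precursors (OPCs) another held 365 of the 476 2VO cells and 31 and 30 sham cells, so that in both classes different clusters held most cells of sham and of 2VO.

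Chaperone genes were called in both directions after 2VO, in 6 of the 13 classes. Hspb1 was higher in GLUTNs, OLGs, OPCs and macrophages, Hsph1 in the last 3 of these and Cryab in GLUTNs and macrophages, TRiC subunits were lower in neural progenitors (NPCs), OLGs and OPCs, and Hspa5 and Pdia6 were higher in CPECs. UMI counts were summed per class and library and compared by the edgeR quasi-likelihood test with Benjamini-Hochberg adjustment over all genes tested in the class, and the calls below require both an adjusted p below 0.05 and a change of more than 1.5-fold. Of 468 pairs of member and class, 448 passed the filter on low counts, 13 were called higher and 14 lower, and 20 of the 36 members were called in no class. The number of genes called depends on how the test pooled the spread in each class, so counts are read only against the share of all genes called in the same class. In GLUTNs and macrophages the test used only the spread shared over genes. A gene's own difference between the sham libraries had no weight there, and the small p-values of these classes rest on that.

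In CPECs, 2 members were called higher and 1 lower of 36 tested, where 2.01% and 4.71% of all genes were called. In GLUTNs, 4 of 34 were higher and 0 lower (1.16% and 0.524% of all genes). In macrophages, 3 of 30 were higher and 0 lower, beside 4.78% and 0.717%, and in OLGs, 2 of 35 were higher and 3 lower, beside 2.8% and 6.24%. OPCs stood apart, since 11.5% of all genes were called higher and 15.4% lower there, and 2 and 8 of 35 members followed. In NPCs, 0 of 34 were higher and 2 lower (1.11% and 3.47%).

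In the other 7 classes edgeR called 0 members in either direction. These zeros depend on the processing. With doublets removed the same test called 2 members higher in each of astrocytes (ASTs), endothelial cells (ECs), pericytes (PERs) and microglia and 1 in Cajal-Retzius neurons, and 1 lower in microglia and 1 in Cajal-Retzius neurons, while over all genes the calls in microglia went from 0 to 713 higher and 427 lower of 9101. Over all genes, doublet removal gave 133 higher and 132 lower of 10302 in ASTs, and 348 and 88 of 12033 in ECs. It gave 328 and 197 of 7990 in PERs, and 59 and 37 of 5108 in Cajal-Retzius neurons. With doublets kept, RLE size factors gave 1 member higher and 1 lower in Cajal-Retzius neurons, beside 121 and 137 of all 5130 genes. The calls over all genes in microglia were then 198 higher and 71 lower of 9755. In cells with 1000 to 6000 UMIs members were called in all of these classes but ASTs. Among them were 5 higher of 35 in PERs, beside 186 of all 6956 genes. In microglia 2 of 35 were higher and 3 lower, beside 1024 and 529 of all 8477 genes. In the test as reported, 1.88% of all genes were higher and 0.358% lower in ECs, with 2828 of 12304 genes at an unadjusted p under 0.05. In Cajal-Retzius neurons these were 0.585% and 0.312%, with 1036 of 5130. Vascular leptomeningeal cells (VLMCs) had 1.02% and 0.0409%, with 378 of 4891, and smooth muscle cells (VSMCs) 0.377% and 0.0471%, with 1197 of 8497. ASTs had 0.019% and 0%, with 1385 of 10549. In PERs and in microglia 0% of genes were called higher and 0% lower, with 1268 of 8682 and 2165 of 9755 genes at an unadjusted p under 0.05.

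**Figure D1:**
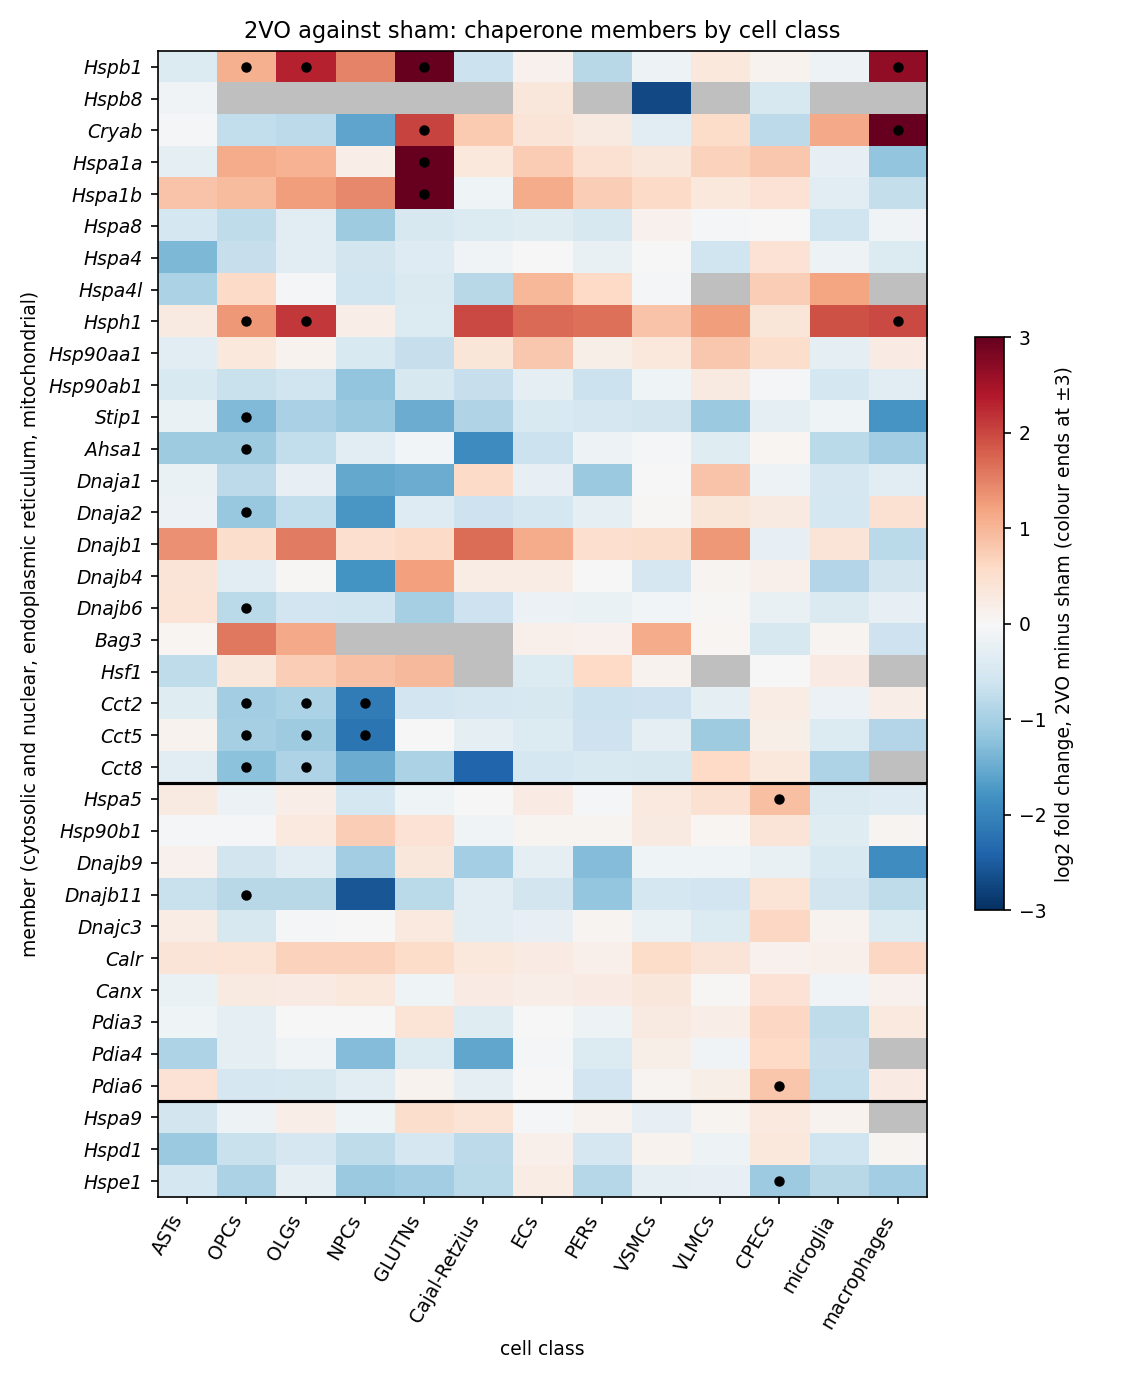
Log2 fold change of 2VO against sham for the 36 members (rows, by compartment) in the 13 cell classes (columns), from the edgeR fit in each class. Blue is lower and red higher in 2VO, the color ends at 3 in either direction, dots mark called pairs and grey cells were not tested. The 13 pairs called higher lie in 5 classes and the 14 called lower in 4.

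The level of the 2VO library relative to both sham libraries shows how far the members moved as a set. It lay above both in 151 of 448 pairs and below both in 197, or 33.71% and 43.97%, where over all tested pairs of gene and class 40.7% lay above both and 41.7% below both. The median log2 fold change was -0.17 over the 281 cytosolic pairs, -0.01 over the 129 reticulum pairs and -0.28 over the 38 mitochondrial pairs. The sham libraries also differed from each other in these genes. Sham 1 was higher than sham 2 in 332 of 448 pairs (74.11%), and in 81.58% of mitochondrial pairs. Without sham 1 the medians were 0.027, 0.073 and 0.0020, so that the lower level over the cytosolic and mitochondrial pairs rests on that library.

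Among the cytosolic chaperones known as inducible, the 2VO library lay above both sham libraries in 12 of 13 classes for Hsph1 and 11 for Dnajb1. This was so in 8 classes for Hspa1a, 7 for Hspa1b and for Hspb1, and 6 for Hsp90aa1. Most of these pairs were not called. Over all tested pairs of gene and class, 40.7% lay above both, so the lower of these counts are not read as a direction. Hsph1 is an exchange factor of HSP70 (chr5:149614287-149636376). In OPCs it stood at 149 and 114 CPM (counts scaled to the same library total) in the sham libraries and 323 in 2VO, a log2 fold change of 1.29 (SE 0.26, edgeR adjusted p = 0.0077). In OLGs it stood at 126 and 66.3 CPM in sham and 418 in 2VO (2.12, SE 0.37, edgeR adjusted p = 0.0461), and in macrophages at 331, 83.1 and 778 (1.99, SE 0.50, edgeR adjusted p = 0.00228). The 2VO library lay above both sham libraries in each. Within 1 of the OLG clusters, however, the difference turned to -1.10 and was not called. Over whole classes the 2VO library lay above both in 12 of the 13 classes, although every class draws on the same 3 libraries, and 6.91% of the 1693 genes tested in all classes lay above both in at least that many. The uncalled values were of similar size in Cajal-Retzius neurons, 75.9 and 55.8 CPM against 270.4 (1.99, edgeR adjusted p = 0.059), and in ECs, 89.0 and 32.5 CPM against 193 (1.69, edgeR adjusted p = 0.094). GLUTNs were the exception, where the 2VO library lay below both at 229 CPM against 303 and 305.

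Dnajb1, the J-domain partner of inducible HSP70, lay above both sham libraries in 11 of 13 classes and was called in none. It read 224 and 97.6 CPM in sham OLGs and 474 in 2VO (1.55 on the log2 scale), and 203, 115 and 345 in ECs (1.12). In Cajal-Retzius neurons it read 64.5, 74.4 and 219.7 CPM. In macrophages the order was different, since sham 1 held 2627 CPM, sham 2 held 202 and 2VO 797. The 2VO library thus lay between the sham libraries in macrophages.

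Hspa1a (chr17:34969190-34972156) and Hspa1b (chr17:34956436-34959238), the inducible HSP70 genes, are near-identical neighbours, so the split of reads between them is uncertain. Both were highest in sham macrophages and microglia and lowest in GLUTNs. In GLUTNs, Hspa1a read 31.6 and 15.6 CPM in sham and 248 in 2VO (3.51, SE 0.57, edgeR adjusted p = 4.13e-07), and Hspa1b 23.7 and 15.6 against 275 (3.88, SE 0.56, edgeR adjusted p = 1.14e-08). These values rest on 12, 16 and 27 UMIs and on 9, 16 and 30, and the 2VO library lay above both sham libraries. In other classes the sham libraries were far apart. Hspa1a was higher in sham 1 than in sham 2 in 13 of 13 classes, by a median of 1.82 on the log2 scale, and 0.709% of the genes tested in all classes had that order throughout. In OLGs it read 582 and 105 CPM in sham and 713 in 2VO, in ECs 1999, 1096 and 2616, and in macrophages 9707, 2114 and 2582, so that 2VO lay within the sham range in macrophages. Hspa1b followed the same order in 12 of 13 classes (median 2.15).

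**Figure D2:**
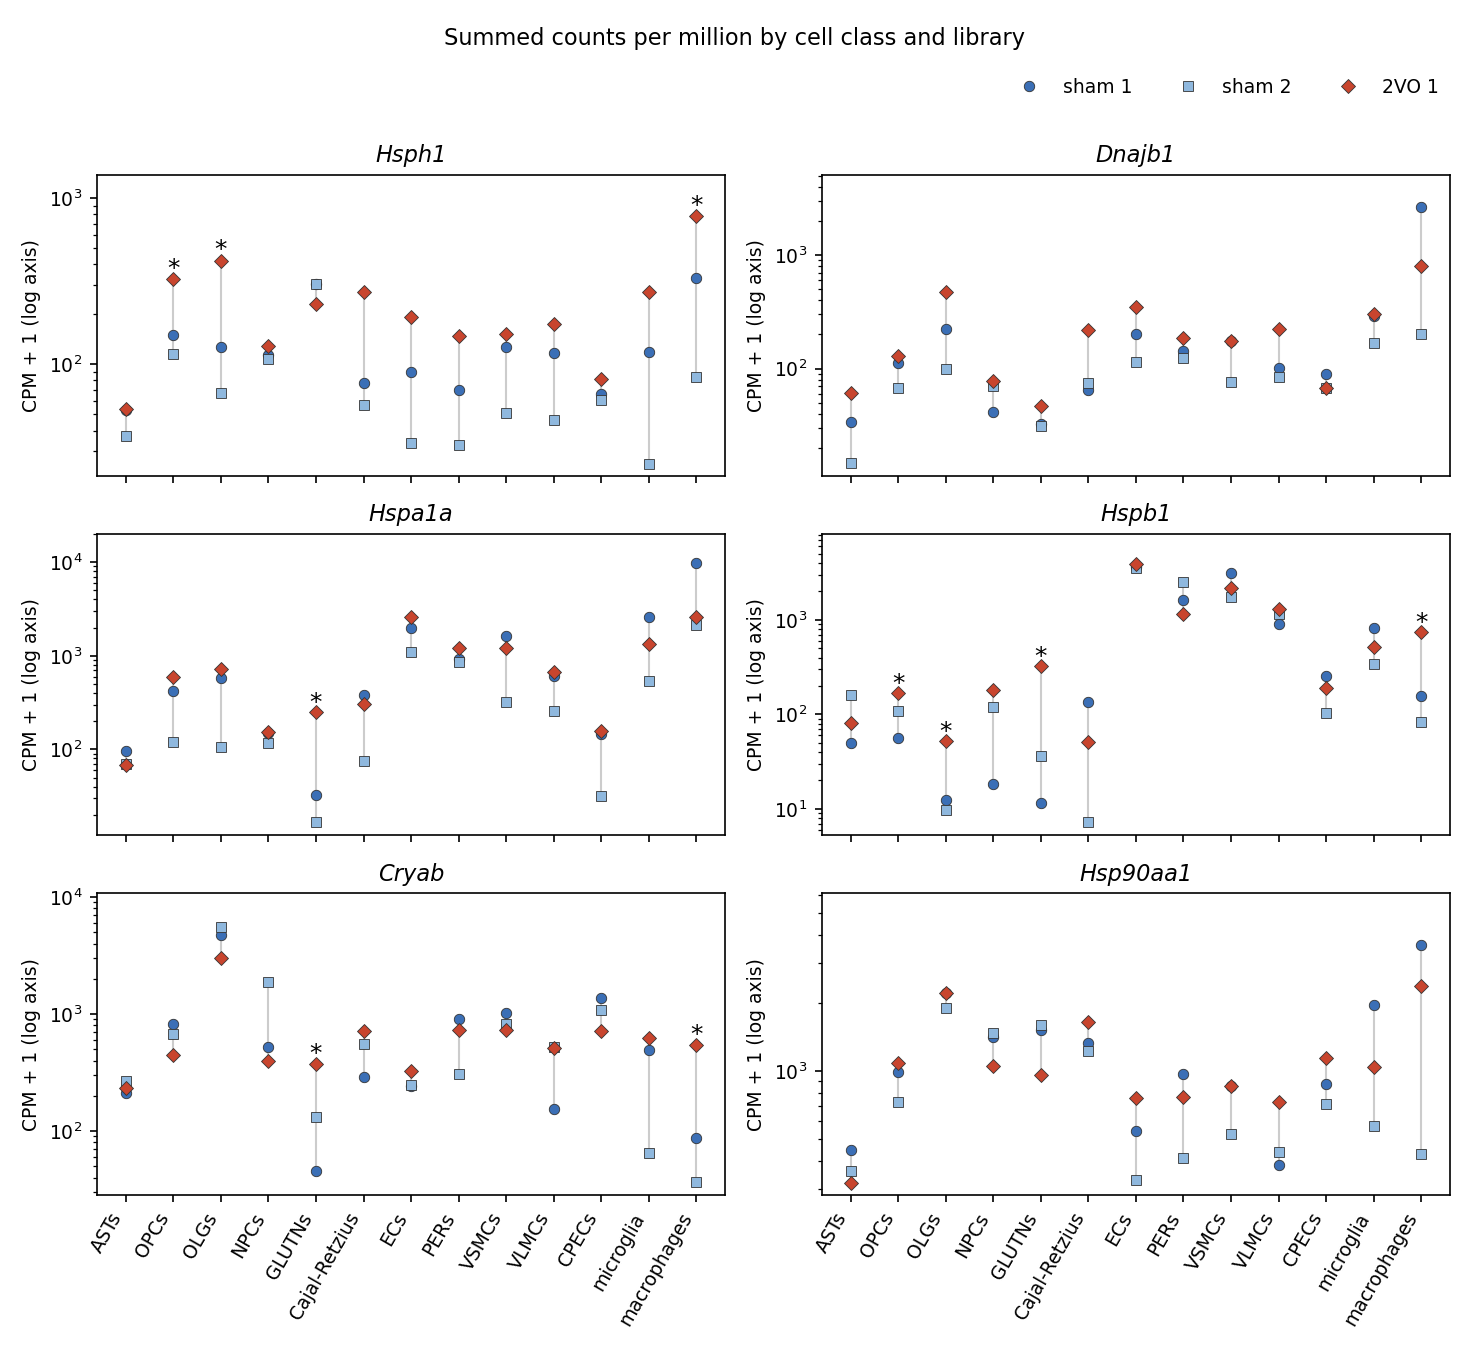
Level in CPM + 1 (log axis) of 6 cytosolic chaperone genes in each of the 13 classes, 1 point per library, for sham 1, sham 2 and 2VO, with an asterisk at called pairs. Hsph1 in 2VO lies above both sham libraries in 12 classes, while Hspa1a in sham 1 lies above sham 2 in all 13.

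Hspb1, a small heat shock protein (chr5:135887919-135889563), is a gene of vessels in these data and was at its highest in ECs, where 2VO changed little: 3653 and 3563 CPM in sham and 3948 in 2VO (0.13, SE 0.18, edgeR adjusted p = 0.69). It was called higher in 4 classes where it is low. In OLGs it read 11.4 and 8.78 CPM in sham and 50.7 in 2VO (2.31, SE 0.25, edgeR adjusted p = 0.0461). In OPCs it read 55.1, 107 and 167 (1.07, SE 0.32, edgeR adjusted p = 0.0295). In GLUTNs it read 10.5, 35.0 and 321 (3.63, SE 0.54, edgeR adjusted p = 2.52e-08), and in macrophages 157, 83.1 and 739 (2.66, SE 0.52, edgeR adjusted p = 1.76e-05). The 2VO library lay above both sham libraries in all 4. Within clusters the difference turned in both oligodendrocyte classes. Within 1 of the OLG clusters it was -0.54 and not called, and in the cluster that holds most 2VO OPCs Hspb1 read 1395 and 1429 CPM in its 31 and 30 sham cells and 290.3 in 2VO, a called fall of -2.28. Few cells carried much of the gene in OPCs. Over the whole class 1 cell held 133 of 337 Hspb1 UMIs in sham 1, 60 of 238 in sham 2 and 46 of 286 in 2VO. How these UMIs were spread over the cells of single clusters was not measured. DESeq2 did not call Hspb1 in OPCs or any member in macrophages, and gave no adjusted p for Hspb1, Cryab, Hspa1a and Hspa1b in GLUTNs. In 1 fit over all classes with a pooled spread, 1 member was called higher in GLUTNs and 0 in macrophages. Over all genes that fit called 85 of 8017 higher in GLUTNs and 154 of 2510 in macrophages.

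Cryab, the alpha-B crystallin gene (chr9:50751325-50756636), is in turn a gene of OLGs, where it read 4757 and 5572 CPM in sham and 2997 in 2VO (-0.79, SE 0.27, edgeR adjusted p = 0.12). It was called higher in GLUTNs, at 44.8, 130.4 and 376 CPM (2.02, SE 0.51, edgeR adjusted p = 0.0117), and in macrophages, at 87.0, 35.6 and 547 (3.22, SE 0.59, edgeR adjusted p = 3.14e-06). The 2VO library lay above both sham libraries in these classes and below both in OLGs. With barcodes from 200 detected genes on, both differences turned, to -0.42 in GLUTNs and -0.34 in macrophages. In CPECs, the class with the second highest level, it read 1363 and 1087 CPM in sham and 712 in 2VO (-0.78, edgeR adjusted p = 0.058).

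Markers of ECs and OLGs moved with Hspb1 and Cryab, and in GLUTNs also with Hspa1a and Hspa1b. The summed level of the 8 EC markers in GLUTNs was 61.0 and 264 CPM in sham and 1702 in 2VO, and that of the 8 OLG markers 247, 569 and 2540. In macrophages the EC markers summed to 28.4 and 78.3 CPM in sham, with 7 and 4 of the 8 at 0, and to 3265 in 2VO with 0 at 0, and the OLG markers to 469, 157 and 5130. The GLUTNs' own markers read 6814, 11270 and 4992 CPM, and those of macrophages 16030, 15710 and 8025. Other lists rose as well in 2VO macrophages, PER markers at 0, 9.79 and 1081 CPM and OPC markers at 14.2, 9.79 and 595. GLUTN markers did not rise there, at 71.1, 19.6 and 58.1. In GLUTNs the PER markers read 17.8, 98.6 and 8.73 CPM. Hspb1 was set beside EC markers only, although PERs also held 850, 5125 and 483 of its UMIs. The EC markers were also higher in 2VO in OLGs, at 20.6, 35.9 and 210.4 CPM, and in OPCs, at 199, 479.7 and 1062.
In 2VO the cells held 23.4 Hspb1 UMIs per 100 EC marker UMIs in ECs, 17.9 in GLUTNs, 17.1 in macrophages, 24.1 in OLGs and 15.7 in OPCs, and also 17.6 in microglia, where the gene was not called. In the remaining classes this 2VO ratio ran from 5.26 in Cajal-Retzius neurons to 239 in VSMCs. In sham the ratio was 18.3 and 16.7 in ECs, 16.7 and 12.8 in GLUTNs, 55.3 and 24.4 in OLGs, 27.6 and 22.2 in OPCs, and 450 and 87.5 in macrophages, where 2 and 8 EC marker UMIs were found in all. For Cryab per 100 OLG marker UMIs the 2VO values were 7.22 in OLGs, 14.1 in GLUTNs and 8.06 in macrophages. The sham values were 5.08 and 9.5 in OLGs, 17.5 and 22.1 in GLUTNs, and 15.2 and 18.8 in macrophages. Cell by cell, 34 of the 35 Hspb1 UMIs of 2VO GLUTNs lay in cells with an EC marker UMI, and 40 of 41 Cryab UMIs in cells with an OLG marker UMI. In 2VO macrophages these were 72 of 77 and 57 of 57. OLG marker UMIs were as common in 2VO cells without Cryab, 7 of 7 GLUTNs and 24 of 26 macrophages. The Cryab counts therefore do not set the cells with the gene apart. EC marker UMIs lay in 5 of 6 2VO GLUTNs with Hspb1 and 3 of 9 without it. In 2VO macrophages these were 9 of 13 and 11 of 29. In ECs 8509, 6785 and 10036 Hspa1a UMIs were found in sham 1, sham 2 and 2VO, beside 84777, 131834 and 64695 EC marker UMIs. In GLUTNs these were 12, 16 and 27, beside 24, 281 and 195. The proportion thus differed between libraries in both classes. The share of these differences that comes from RNA of other cells was not estimated. Leaving out the barcodes with a doublet score over 0.2 left all of these calls in place. That limit was set by hand and marked 160 of the 3912 2VO barcodes, while the automatic threshold of 0.0805 marked 704. The cells left were also clustered again, and the macrophage class then held 143 2VO cells where it had held 42. The part of doublets in these calls was not tested.

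**Figure D3:**
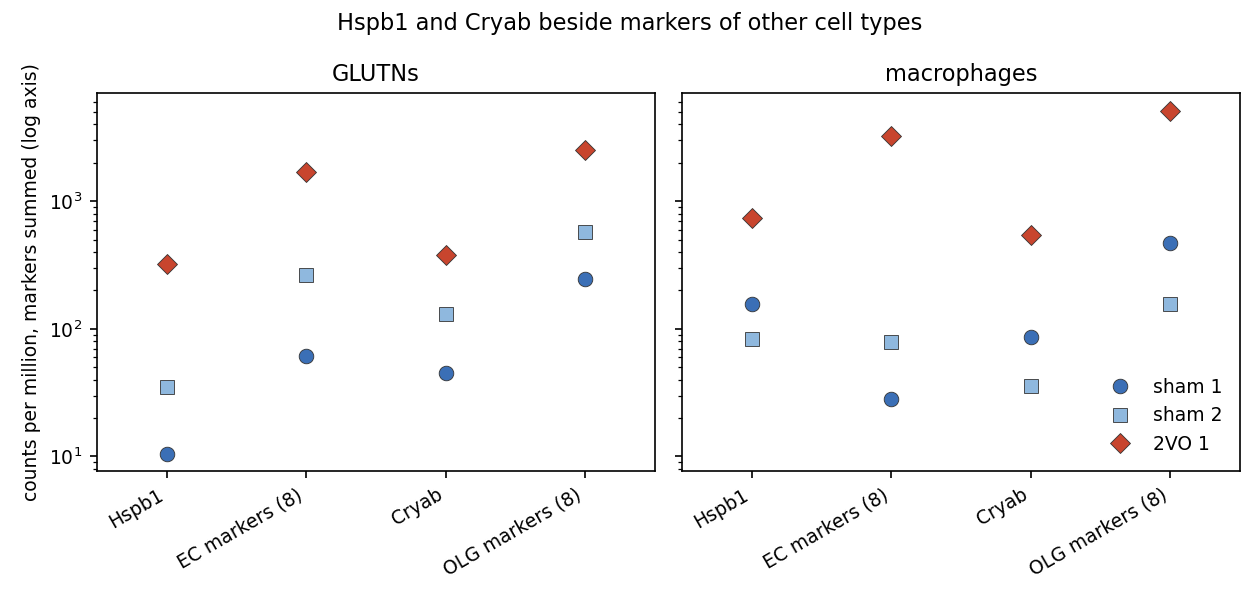
Level in CPM (log axis) of Hspb1 and Cryab and summed level of 8 EC and 8 OLG markers in GLUTNs (left) and macrophages (right), 1 point per library. All 4 measures are highest in the 2VO library in both classes.

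Few cells carried these molecules. A UMI of Hspb1 was found in 6 of 15 2VO GLUTNs (40.0%, exact 95% interval 16.3 to 67.7) and in 6.25% and 9.91% of sham GLUTNs, and 1 cell held 19 of the 35 UMIs. After thinning each cell to 1000 UMIs the shares were 13.3% against 4.55% and 2.73%, and the intervals overlapped. In macrophages 31.0% of 2VO cells and 5.26% and 16.7% of sham cells held a UMI. The class with the lowest level of Hspb1, OLGs, gave 13.1% in 2VO and 8.60% and 5.34% in sham, at medians of 2258.5, 11512.5 and 7934 UMIs per cell against 5548 in 2VO GLUTNs. For Cryab the shares were 53.3% in 2VO GLUTNs, 25.0% and 27.0% in sham, and 38.1% in 2VO macrophages with 26.3% and 12.5% in sham. ECs, which are low in Cryab, gave 36.8% in 2VO and 17.0% and 13.4% in sham at a median of 2041 UMIs in 2VO, so the 2VO macrophages were near that level. The intervals cover counting error only.

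Of the remaining cytosolic members near this group, Hspb8, a partner of Bag3, passed the filter in 4 classes and Bag3 and the factor Hsf1 in 10 each, and none was called. Bag3 read 6.27, 5.74 and 13.2 CPM in OLGs. Hsf1 read 14.9, 15.9 and 25.6 CPM in OLGs and lay above both sham libraries in 7 of 10 classes. Dnajb4, a J-domain protein, ranged from -1.79 to 1.23 on the log2 scale over 13 classes, with 0 calls.

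Hspa8 and Hsp90ab1, the constitutive chaperones of the cytosol, lay more often below both sham libraries than above. Over all tested pairs of gene and class, 40.7% lay above both and 41.7% below both. Hspa8, the housekeeping HSP70, lay above both sham libraries in 0 of 13 classes and below both in 7, without a call: in NPCs it read 1994 and 1499 CPM in sham and 840.3 in 2VO (-1.06). Hsp90ab1, the constitutive HSP90, lay below both in 9 classes and was highest in Cajal-Retzius neurons, at 3644 and 3340.5 CPM in sham and 2180.3 in 2VO. Sham 1 was above sham 2 in all 13 classes for it. Hsp90aa1, the inducible HSP90, lay above both in 6 and below both in 3 classes with 0 calls, and no direction is read from these counts. In ECs Hsp90aa1 read 545 and 328 CPM in sham and 762 in 2VO.

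In OPCs 4 co-chaperone genes were called lower, while Hsph1 was called higher and Dnaja1, Dnajb1, Dnajb4 and Hspa4 were not called. Stip1, which links HSP70 to HSP90, read 142 and 112 CPM in sham OPCs and 50.9 in 2VO (-1.33, SE 0.27, edgeR adjusted p = 0.00791), and its fold change was below 0 in all 13 classes. Ahsa1, which stimulates the HSP90 ATPase, fell by 1.07 on the log2 scale (144, 120.5 and 63.2 CPM, edgeR adjusted p = 0.0136), and the J-domain gene Dnaja2 by 1.14 (212, 182 and 89.6 CPM, edgeR adjusted p = 0.0120). Dnajb6, another J-domain gene, fell by 0.82 (209, 212 and 119 CPM, edgeR adjusted p = 0.0382). All 4 lay below both sham libraries there, in a class where 15.4% of all genes were called lower. DESeq2 called 3 members lower in OPCs, beside 831 of 12378 genes, and RLE size factors 5, beside 1684. With doublets removed 8 were lower, beside 1898 of 12408. The cluster with most 2VO OPCs held 31 and 30 sham cells. Over the calls of all classes, 7 of 51 values within single clusters kept their call. Hspa4 and Hspa4l, relatives of Hsph1, and Dnaja1 were called in no class. Hspa4 lay below both sham libraries in 10 of 13 classes, Hspa4l in 4 of 11 and Dnaja1 in 5 of 13.

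TRiC subunits were the members called lower most often. In OPCs, Cct2 read 254 and 185 CPM in sham and 108 in 2VO, Cct5 329.6, 229.7 and 141, and Cct8 261, 218 and 102, with log2 fold changes of -1.03, -0.99 and -1.22 (edgeR adjusted p = 0.0236, 0.0329 and 0.0109). In OLGs the same 3 genes read 183, 174 and 92.3, 175, 164 and 80.3, and 136, 126 and 69.5 CPM, with -0.95, -1.08 and -0.91 (edgeR adjusted p = 0.0468, 0.0461 and 0.0488). The 2VO library lay below both sham libraries in all 6 cases, and in OLGs the sham libraries lay much closer to each other than to 2VO. NPCs, which had the highest sham level of Cct2 and Cct5, read 422 and 345 CPM against 89.1 for Cct2 (-2.11, edgeR adjusted p = 0.0261) and 347 and 356 against 76.4 for Cct5 (-2.20, edgeR adjusted p = 0.0246). These 2VO values rest on 7 and 6 UMIs from 32 cells. Over all classes Cct2 lay below both sham libraries in 11 of 13, Cct5 in 10 of 13 and Cct8 in 10 of 12. CPECs went the other way for all 3 genes, with Cct8 at 70.2 and 52.0 CPM in sham and 76.2 in 2VO. Among cells with 1000 to 6000 UMIs the calls remained in NPCs and OPCs and were lost in OLGs, where the 3 log2 fold changes were -0.30, -0.57 and -0.30, and within single OPC clusters none of the 3 genes was called.

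**Figure D4:**
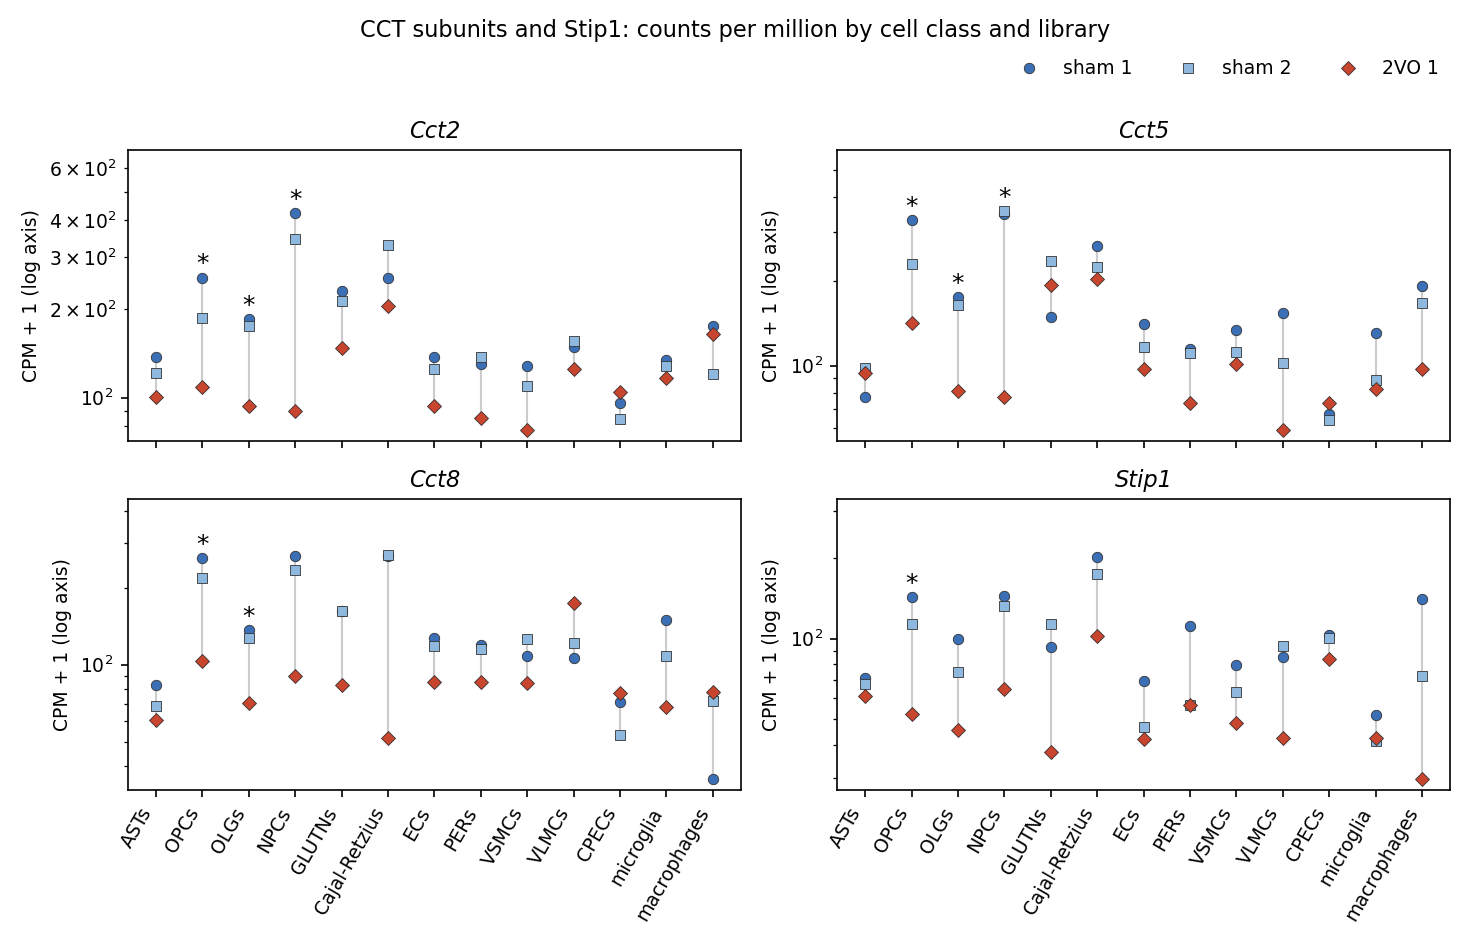
Level in CPM + 1 (log axis) of the TRiC subunits Cct2, Cct5 and Cct8 and of Stip1 in the 13 classes, 1 point per library, with an asterisk at called pairs. In OPCs and OLGs the 2VO points of all 4 genes lie below both sham points.

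Further cytosolic chaperones that are not among the 36 members, from a list of 35, pointed the same way in OPCs, OLGs and NPCs and in most other classes. In OPCs 15 of 33 tested were called lower and 1 higher, beside 15.4% and 11.5% of all genes. Their median log2 fold change was -0.73 where all genes had 0.03. Among them Hspb11 fell by 1.62 (89.5, 71.5 and 26.3 CPM) and Bag1, an exchange factor, by 1.34 (169, 107 and 55.0 CPM), while Hspa12b was higher at 1.47, 4.49 and 17.0 CPM. In OLGs 4 of 33 were lower, beside 6.24% of all genes, with a median of -0.66. In NPCs 3 of 31 were lower, beside 3.47%, with a median of -0.87 where all genes had -0.22. The median of the list was also low in classes without a called TRiC subunit. It was -0.55 in Cajal-Retzius neurons, -0.46 in GLUTNs, -0.43 in VSMCs and -0.40 in ECs. CPECs were the only class with a median above 0, at 0.04. Another TRiC subunit, Cct4, fell in NPCs (332, 341 and 89.1 CPM).

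Among the endoplasmic reticulum members, those called higher were found in CPECs, the cells that secrete cerebrospinal fluid. Hspa5 (chr2:34771970-34777547), the HSP70 of the reticulum known as BiP, read 535 and 550.0 CPM in sham and 1017 in 2VO (0.91, SE 0.20, edgeR adjusted p = 0.0183). Pdia6 (chr12:17266545-17284770), a disulfide isomerase, read 192 and 183 CPM in sham and 336 in 2VO (0.84, SE 0.20, edgeR adjusted p = 0.0249). The sham libraries differed by far less than the distance to 2VO for both. Hspa5 was called higher in each of the 2 CPEC clusters, at 543 and 562 CPM against 1055 in the larger and 416 and 457 against 718 in the smaller, and Pdia6 in the larger. Among cells with 1000 to 6000 UMIs Hspa5 was called again (1.21) and Pdia6 was not (0.88, edgeR adjusted p = 0.18). CPECs had a median of 6373 UMIs per cell in 2VO and 39319 and 29326 in sham. In 1 fit over all classes with a pooled spread, 0 members were called in CPECs in either direction. Over all 12181 genes in CPECs that fit called 66 higher and 86 lower.

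The other reticulum members moved less in CPECs and were not called. Hsp90b1, the HSP90 of the reticulum, read 873 and 848 CPM in sham and 1130.2 in 2VO (0.39), Pdia3 235, 251 and 372 (0.61), and Dnajc3, which also restrains a kinase of the unfolded protein response, 196, 154 and 269.7 (0.62). Pdia4 read 113, 110.2 and 169.8 CPM, Canx 228, 221 and 303, Calr 544, 513 and 582, and Dnajb11 84.3, 82.0 and 111. The 2VO library lay above both sham libraries for 9 of the 10 reticulum members, beside 40.6% of the 12812 genes tested in CPECs. Dnajb9 at 58.8, 75.1 and 56.9 CPM was the exception. The median log2 fold change of the 10 was 0.52 where all genes in CPECs had 0.01. Among 28 further genes of the reticulum and of the unfolded protein response, 2 were higher in CPECs, Sdf2l1 (70.9, 59.6 and 126 CPM) and Derl3 (0.896, 0.950 and 3.63 CPM), and 1 was lower, the translocon subunit Sec61b (426, 495 and 239 CPM), with a median of 0.25. Over all genes in CPECs 2.01% were called higher and 4.71% lower.

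**Figure D5:**
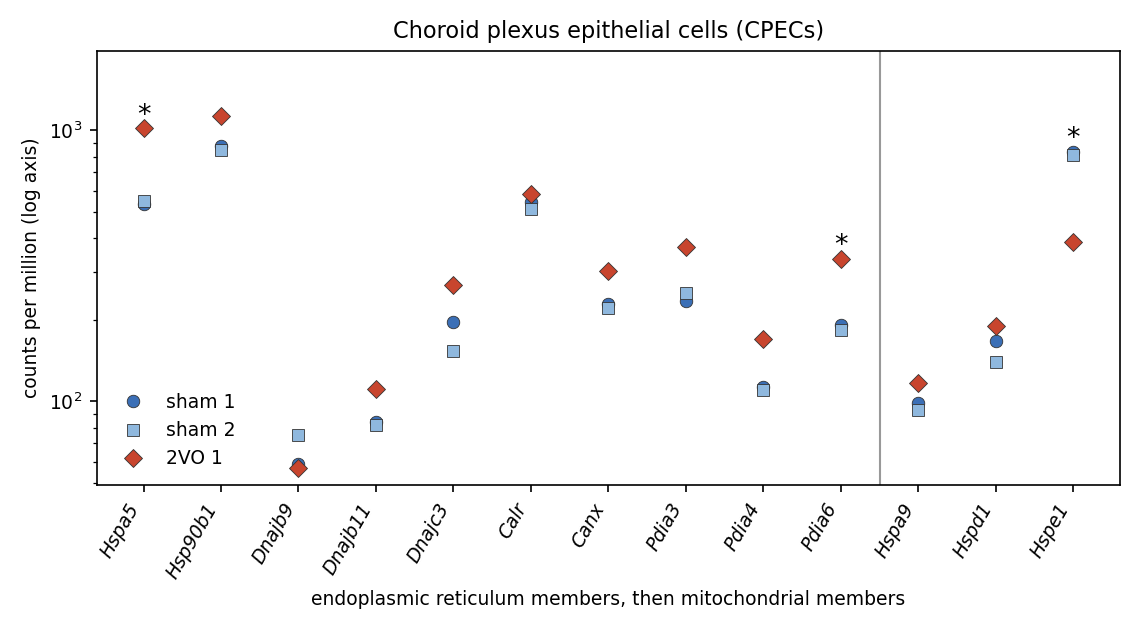
Level in CPM (log axis) of the endoplasmic reticulum and mitochondrial members in choroid plexus epithelial cells, 1 point per library, with an asterisk at called genes. Hspa5 and Pdia6 in 2VO lie above both sham points by more than the sham points differ, and Hspe1 lies below.

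Calr, a calcium-binding lectin chaperone, lay above both sham libraries in 13 of 13 classes by 0.14 to 0.70 on the log2 scale and was called in none. It read 189 and 185 CPM in sham OLGs and 304 in 2VO (0.70, edgeR adjusted p = 0.062). Hspa5 itself went the other way in microglia, at 1002 and 1016 CPM in sham and 747 in 2VO (-0.43, edgeR adjusted p = 0.28). In OPCs Dnajb11, a J-domain partner of Hspa5, fell by 0.84 (180.5, 144 and 90.7 CPM, edgeR adjusted p = 0.0362), and lay below both sham libraries in 11 of 13 classes. Dnajb9 did so in 10. In OPCs 5 of 27 further reticulum genes were lower and 1 higher, where 15.4% and 11.5% of all genes were, with Sec61b at 289, 258 and 98.3 CPM and Manf, a secreted stress protein, at 306, 216 and 102.

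Of the mitochondrial members, only Hspe1 was called, and only in CPECs. Hspe1, the lid of the mitochondrial chaperonin (chr1:55088132-55091307), read 831 and 809 CPM in sham CPECs and 386 in 2VO (-1.09, SE 0.22, edgeR adjusted p = 0.0121), and was called lower in both CPEC clusters. Among CPECs with 1000 to 6000 UMIs the difference was -0.18 and not called (edgeR adjusted p = 0.91). Its partner Hspd1, the barrel of the same complex, read 168, 139.7 and 191 CPM in CPECs (0.31), above both sham libraries. The partners that share 1 promoter region thus stood on opposite sides of sham in these cells. In OPCs Hspe1 read 802, 522 and 344 CPM (-0.95, edgeR adjusted p = 0.067) and Hspd1 406, 240.5 and 203 (-0.67). Hspa9, the mitochondrial HSP70, ranged from -0.56 to 0.53 over 12 classes with 0 calls. Among 11 further mitochondrial chaperones and proteases, Grpel1, an exchange factor for Hspa9, fell by 1.15 in OLGs (124, 136 and 58.7 CPM) and by 1.32 in OPCs (172, 160.5 and 66.7 CPM), where Clpp also fell.

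Whether the 2VO difference varied between classes was tested in 1 fit over all of them. It did for 1 of the members, Cct8 (edgeR adjusted p = 0.0482), beside 2.89% of 14969 genes. That call was lost with RLE size factors (0.0629), in classes with at least 30 cells per library (0.0598) and in cells with 1000 to 6000 UMIs (0.23), and it held with barcodes from 200 detected genes on (0.0388). Set against the mean of the other classes, the difference in CPECs was larger by 1.33 (SE 0.30) on the log2 scale for Dnajb11 and by 1.12 (SE 0.24) for Pdia4 (edgeR adjusted p = 0.0482 and 0.0368), beside 0.301% of all genes in either direction. The same contrast was made for each of the 13 classes, with p adjusted over genes in each. For Hspa5 (0.96) and Pdia6 (1.06) it was not called in CPECs (edgeR adjusted p = 0.24 and 0.084). Both genes were thus called higher within CPECs, without a called difference from the other classes. In cells with 1000 to 6000 UMIs, where the 2VO cells were still the shallower in most classes (a median of 2521 UMIs in OPCs against 4718 and 4510.5), 14.2% of 12276 genes were called, and so were 10 of the 36 members, Cryab, Hspa1a, Hspa1b, Hspb1, Dnajb1, Dnaja1, Hspe1, Pdia6, Hsph1 and Pdia4.

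Immediate early genes, which cell isolation also raises, were followed in the same cells as a list of 16. In sham macrophages they summed to 34780 and 25480 CPM against 10950 in 2VO, in microglia to 28260 and 34080 against 10900, and in GLUTNs they read 991 and 1276 CPM in sham and 1981 in 2VO. In GLUTNs Fos, Klf2 and Jun were called higher, and in macrophages Klf2 and Atf3 lower. The median log2 fold change of the list was 1.60 in GLUTNs, where 12 of the 16 were tested, and 1.37 in OLGs. In these classes some inducible chaperones were called higher, while Hsph1 lay below both sham libraries in GLUTNs. The median was -1.11 in macrophages, where Hspb1, Cryab and Hsph1 were called higher as well. In classes without a called member it ran from -1.27 in microglia to 0.74 in VLMCs. The part of cell isolation in the differences between libraries was not tested.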

How the data were processed

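The deposited matrices hold UMI counts per gene and barcode, which the authors made with Cell Ranger 3.1.0 on the mouse reference mm10 (GRCm38); the submitters' processing notes also name Seurat 3.2.2. The counts are not normalized, and as 3′ counts they are compared within a gene and not between genes. Totals were 64667950 and 39017426 UMIs in the sham libraries and 17681002 in the 2VO library. Barcodes with at least 650 genes were clustered in scanpy 1.11.5 (2000 variable genes without the members, 30 components, resolution 1.0), which gave 28 clusters. These were named from at least 3 markers of a class, a rule adjusted after the clusters were seen, and clusters without a name were left out. Barcodes with a doublet score over 0.2 were kept. Any 2 libraries shared 12 to 15 barcodes.

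Counts were summed per class and library, scaled by TMM in each class apart (levels set across classes rest on these separate scalings), filtered by filterByExpr and tested in edgeR 4.0.16 (2 sham libraries against 1 2VO library, 1 residual degree of freedom). All tests are two-sided, and p-values measure only the spread between these libraries. Shares of cells have exact Clopper-Pearson intervals. The tests were tried on simulated counts. Alternatives were DESeq2 1.42.0, other scalings, filters, clusterings and depths, a fit with a pooled spread and leaving out each sham library. The members and lists were chosen with earlier results of these data known. Named genes are the members called (at most 8 in each direction per class), members named in the design whatever their call, and at most 3 called genes of each further list per class. A few uncalled members (such as Hspa4, Dnajb4 and Pdia4) were named after their values were seen, to account for all 36.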

Additional observations from a re-analysis of the deposited data

Results flagged for a closer look

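3 results met the rule that the 2VO difference varied between cell classes by a test of the difference itself. For Cct8 the joint edgeR fit over 13 classes gave an adjusted p of 0.0482, with log2 fold changes from -2.37 in Cajal-Retzius neurons to 0.60 in VLMCs, and the call was lost under 3 of 4 alternatives (RLE size factors, 0.0629; classes with at least 30 cells per library, 0.0598; cells with 1000 to 6000 UMIs, 0.23). For Dnajb11 the difference in CPECs was larger than the mean of the other classes by 1.33 on the log2 scale (SE 0.30, edgeR adjusted p = 0.0482), since the gene was higher in CPECs (0.42) and lower in the other classes. For Pdia4 the same contrast was 1.12 (SE 0.24, edgeR adjusted p = 0.0368), with 0.61 in CPECs and 0.18 in VSMCs as the only values above 0. No group held enough libraries to look for one that stood apart.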

How the results depend on the processing

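No paired analysis was possible because the groups compared share a single replicate number. Pairs called higher, 13 as reported, numbered 6 with DESeq2, 29 with no filter on low counts, 25 with doublets removed, 31 in cells with 1000 to 6000 UMIs, and 2 in 1 fit over all classes with a pooled spread, chosen after seeing the data. Pairs called lower, 14 as reported, numbered 9, 39 and 23 under the first 3 of these, 22 with barcodes from 200 genes on, 27 with the members among the clustering genes, and 9 with the pooled spread. Members that varied between classes, 1 as reported, numbered 0 with RLE size factors, 10 in cells with 1000 to 6000 UMIs, where 14.2% of all genes were called against 2.89%, and 0 in classes with at least 30 cells per library.

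Of the 27 calls, 12 of 23 with an adjusted p held in DESeq2, which called no member in macrophages or NPCs and gave no adjusted p for the 4 in GLUTNs, 10 with the pooled spread, 22 with RLE, 19 with 2 reversed from 200 genes on, 13 of 23 in cells with 1000 to 6000 UMIs, where GLUTNs had too few cells, and all 27 with doublets removed or with scaling without mitochondrial, haemoglobin and rRNA-associated genes. Within clusters 7 of 51 values kept their call, 41 lost it and 3 reversed. Reversed values were -0.42 for Cryab in GLUTNs and -0.34 in macrophages from 200 genes on, and -0.22 there with members among the clustering genes. Within single clusters Hspb1 read -0.54 in OLGs, -2.28 in OPCs and -0.52, -0.71 and -0.070 in ECs, Hsph1 -1.10 in OLGs, Dnajb1 -0.19 in ECs and -0.81 in OLGs, and Hspa1a -1.42 in OLGs. The causes were not tested.

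Leaving out 1 sham library leaves 1 library against 1, a value with no test. The median over pairs ran from -0.29 to 0.027 for cytosolic, -0.027 to 0.073 for reticulum and -0.51 to 0.0020 for mitochondrial members. Thinned to 1000 UMIs, cells with Hspb1 were 2.73% in sham 2 and 13.3% in 2VO GLUTNs and 0% in sham 2 macrophages (a count of 0 in 24 cells), and cells with Cryab were 2.27%, 10% and 20% in GLUTNs and 0% in sham 2 macrophages. Few cells limit the 2VO values of GLUTNs (15), Cajal-Retzius neurons (28), NPCs and VLMCs (32 each), ASTs (38) and macrophages (42).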
